A study of Mus musculus with 14 samples.

Results

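The genes described here encode protein subunits of the mouse's 2 ribosomes, and some paralogs of them. They were chosen by symbol: an Rpl or Rps symbol was taken as a protein of the cytosolic ribosome, and an Mrpl or Mrps symbol as a protein of the mitochondrial ribosome. Of 10544 named genes with a probe in the authors' processed matrix, 85 were members, 18 cytosolic (9 of the large and 9 of the small subunit) and 67 mitochondrial (40 large, 27 small). All 85 were among the 10478 genes tested, through 121 probes, and 16 cytosolic and 66 mitochondrial genes were detected on all 14 arrays. Rps6ka5, Rps6ka3 and Rps6kl1, which encode kinases or kinase-like proteins, and Rps19bp1, a binding protein, begin with the same letters and were not counted. The stalk proteins Rplp0 and Rplp2, which belong to the cytosolic ribosome, fall outside this rule and are given with the pathway lists. Further cytosolic ribosomal proteins were not analysed here. Cytosolic shares below are those of the 18 genes, the paralogs Rpl7l1, Rpl22l1, Rpl3l and Rps27l among them, and not of the whole cytosolic ribosome.

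RNA came from the uterus of C57BL/6 mice aged 8 weeks and was measured on 14 Illumina BeadChip arrays. In the order used below, 4 arrays held uterus of pregnant mice given PC61, an antibody against CD25 used to deplete regulatory T cells, 5 held uterus of pregnant mice given PBS, and 5 held uterus of mice that were not pregnant. Both pregnant groups were collected on day 12 after fertilization. The labels give no dose or schedule of PC61, do not say which tissues of the pregnant uterus were kept, and do not call the replicates separate animals. The p-values therefore cover the spread between arrays alone, which may be technical. Levels below are log2 values after background correction and quantile normalization, and a difference is between group means of these values, so that -1 is a halving.

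The cytosolic ribosome translates the messages of the nucleus and, with its ribosomal RNA, is among the largest investments of a growing cell. Its protein messages are known to be translated together under mTOR control through a pyrimidine run at their first bases. The mitochondrial ribosome is a separate machine, with nuclear-encoded proteins and mitochondrial RNA, that makes the few respiratory chain subunits of the mitochondrial genome. In pregnancy the uterus grows, its stroma turns into decidua and the implantation sites hold placenta and embryo.

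RefSeq (GRCm38.p6) windows from 250 bases before to 50 bases after the start matched 76 of the 85 genes, 17 cytosolic and 59 mitochondrial. A run of at least 5 pyrimidines that begins with a C at the annotated first base, the form of the known translational control element, was present in 2 of 17 cytosolic genes, Rpl38 and Rps10, in 0 of 59 mitochondrial genes and in 2.67% of 17492 protein-coding genes. The search misses a run where the annotated base is not the true start. Genes without a match may therefore still carry one. Both are shown from 10 bases before the start, with the run in capitals, because mTOR is known to act through it.
Rpl38 (chr11:114668570-114668599, plus strand): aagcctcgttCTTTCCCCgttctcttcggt
Rps10 (chr17:27635225-27635254, minus strand): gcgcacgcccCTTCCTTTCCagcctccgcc

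The letters CCGGAAG on either strand, the core bound by ETS factors, were present in 7 of 17 cytosolic promoters (41.2%) and 24 of 59 mitochondrial promoters (40.7%), against 12.9% of protein-coding genes. The letters GCCATNTT, read by YY1, were present on either strand in 17.6% of the cytosolic and 30.5% of the mitochondrial promoters, against 7.46%. The E-box CACGTG, which Myc can bind, stood at 5.88% and 6.78%, against 8.91%. CTTTC on the gene's strand within 25 bases of the start stood at 17.6% and 6.78%, against 7.12%. A match is a description of letters and not of binding. Split by the pregnancy difference described below, the ETS letters were in 3 of 10 cytosolic promoters of genes lower in PBS uterus and 4 of 7 of the others, and in 6 of 12 mitochondrial promoters of lower genes and 18 of 47 of the others. The 100 bases before the start are shown for the genes with a single annotated start that were lower in both pregnant groups and hold these letters there, with the match in capitals (in Rps7 on the opposite strand).
Rps7 (chr12:28635954-28636053, minus strand): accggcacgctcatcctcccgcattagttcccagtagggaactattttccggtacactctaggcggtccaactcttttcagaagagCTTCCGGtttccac
Mrpl51 (chr6:125192100-125192199, plus strand): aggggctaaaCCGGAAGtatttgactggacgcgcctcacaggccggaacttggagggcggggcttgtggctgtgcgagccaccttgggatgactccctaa
Mrps18a (chr17:46110904-46111003, plus strand): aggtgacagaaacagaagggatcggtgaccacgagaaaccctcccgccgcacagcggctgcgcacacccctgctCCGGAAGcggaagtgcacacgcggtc

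Between 16607 and 19729 probes were detected per array, and correlations between arrays over all genes tested lay between 0.775 and 0.989. Of the 5 measured uterine markers, Pgr, Esr1 and Msx1 were detected on all 5 non-pregnant arrays, and Hoxa10 and Hoxa11 on 4 of 5. The 12 measured trophoblast markers were detected on 0 of 5 non-pregnant and on all 5 PBS arrays, and 7 of 7 erythroid and yolk sac markers were higher in PBS than in non-pregnant uterus. The PC61 arrays were unequal: the trophoblast markers averaged -5.27, -4.98, -2.95 and 0.36 on PC61 arrays 1 to 4, counted from their PBS average. In whole-tissue RNA, fewer cells of a type and less RNA per cell cannot be told apart.

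Arrays that stand apart among the ribosomal genes themselves were PC61 array 4, PBS array 5 and non-pregnant array 5. Each carried high values of the same genes, among them Rps3a1, Rpl22l1, Mrps15, Mrps18c, Mrpl20 and Mrpl52. Over the 85 members, the deviations from the own group's mean correlated at 0.68 between PC61 array 4 and PBS array 5, at 0.54 between PC61 array 4 and non-pregnant array 5, and at 0.66 between PBS array 5 and non-pregnant array 5, against 0.35, 0.12 and 0.33 over all genes. Arrays outside these also shared deviations. PBS array 3 and PC61 array 2 correlated at 0.54, and non-pregnant array 3 and PBS array 3 at 0.45, against 0.20 and 0.18 over all genes. Only PC61 array 4, PBS array 5 and non-pregnant array 5 were left out together, a choice made after seeing the data. The labels tie those 3 together in no way beyond the shared number of the PBS and non-pregnant arrays. Counts of members and of the pathway lists without these 3 arrays are given below.

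Treatment with PC61 against PBS in pregnancy gave no call in either ribosome. With limma, 0 of 18 cytosolic and 0 of 67 mitochondrial genes passed an adjusted p of 0.05 (0% of all genes tested, 0 of 10478). At an unadjusted p under 0.05 there were 1 cytosolic and 3 mitochondrial genes, against 15.5% of all genes. The median difference was -0.00 over the cytosolic genes (8 positive, 10 negative, from -0.35 to 0.37) and -0.07 over the mitochondrial genes (23 positive, 44 negative, from -0.53 to 0.48), against 0.01 over all genes. Without the 3 arrays named above the medians were 0.01 and -0.12, with 0 cytosolic calls and 1 mitochondrial call, Mrpl3 at -0.65, where 10.9% of all genes were called. Without PC61 array 4 alone, 0 cytosolic and 2 of 67 mitochondrial genes were called, where 14.6% of all genes were. Arrays reweighted by their fit gave 22 mitochondrial calls, 18 lower and 4 higher, of 67. Of all 10478 genes 38.5% were then called, 1928 lower (18.4%) and 2111 higher.

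The cytosolic gene with the lowest p was Rps7, a small-subunit protein that also binds Mdm2, the regulator of p53. Its level was 13.35, 13.52, 13.46 and 13.40 in PC61 uterus, against 13.85, 13.55, 13.91, 13.87 and 13.74 in PBS uterus. The PC61 arrays all lay below the PBS arrays, which held for 0.811% of all genes, but the difference of -0.35 (SE 0.13) had an adjusted p of 0.232. Rpl27, of the large subunit, differed by -0.25 (SE 0.13, adjusted p 0.362), and Rps27l, a paralog of Rps27 that p53 induces, by -0.18 (SE 0.13, adjusted p 0.505). On the positive side stood Rps3a1 at 0.37 (SE 0.37), Rpl41, the shortest of the proteins, at 0.10 (SE 0.13) and Rpl10a, of the large subunit, at 0.10 (SE 0.13; -0.025 when arrays were scaled by their medians), with adjusted p of 0.649, 0.724 and 0.745. Rps3, at -0.00 (SE 0.13), had practically equal means in the 2 groups.

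Among the mitochondrial genes, Mrpl3 and Mrps22, both subunits in which human mutations cause cardiomyopathy, were the lowest. Mrpl3 stood at 9.95, 9.36, 9.40 and 9.69 in PC61 uterus, against 10.09, 10.19, 10.25, 10.35 and 9.73 in PBS uterus, a difference of -0.53 (SE 0.19, adjusted p 0.235). Mrps22 stood at 9.46, 8.62, 8.60 and 9.49 in PC61 uterus, against 9.66, 9.57, 9.58, 9.38 and 9.61 in PBS uterus, a difference of -0.52 (SE 0.21, adjusted p 0.26). For Mrps22 it was PC61 arrays 2 and 3 that lay low, while arrays 1 and 4 were within the PBS range. Mrps33 differed by -0.30 (SE 0.15, adjusted p 0.348). In the other direction, Mrps10 was 9.59, 9.26, 9.97 and 9.31 in PC61 uterus, against 8.52, 9.23, 8.68, 9.40 and 9.41 in PBS uterus (0.48, SE 0.22, adjusted p 0.316), and the 2 groups overlapped. Mrpl35 differed by 0.37 (SE 0.18, adjusted p 0.338) and Mrps6 by 0.41 (SE 0.20, adjusted p 0.334). Mrps12, which lies at the decoding site, was the single member whose PC61 arrays all lay above the PBS arrays, at 11.17, 11.24, 11.40 and 11.37 in PC61 uterus, against 10.99, 11.07, 11.13, 10.99 and 11.14 in PBS uterus (0.23, SE 0.12, adjusted p 0.357); 1.01% of all genes did so.

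The absence of calls hides unequal arrays. On PC61 arrays 1, 2, 3 and 4, the number of mitochondrial genes below every PBS array was 4, 33, 30 and 7 of 67. On arrays 2 and 3, 49.3% and 44.8% of the list lay below the PBS range, against 30.8% and 32.5% of all genes. On arrays 1 and 4 the shares were 5.97% and 10.4%, against 23.8% and 19.4% of all genes. Above every PBS array lay 26.9%, 7.46%, 14.9% and 14.9% of the list on arrays 1 to 4. For all genes these shares were 33.8%, 32.1%, 31.6% and 15.5%. Averaged over the 67 genes and counted from the PBS average, the level was 0.11, -0.26, -0.17 and 0.07 on the PC61 arrays, against -0.17, 0.02, -0.04, 0.10 and 0.09 on the PBS arrays. Arrays 2 and 3 thus stood at or below the lowest PBS array and arrays 1 and 4 within or just above the PBS range. Of the 18 cytosolic genes, 5, 6, 4 and 3 lay below every PBS array on PC61 arrays 1 to 4. These are 27.8%, 33.3%, 22.2% and 16.7%, against 23.8%, 30.8%, 32.5% and 19.4% of all genes. Above every PBS array lay 11.1%, 5.56%, 0% and 16.7% of the cytosolic genes. The means of the cytosolic genes were -0.10, -0.11, -0.07 and 0.14 on the PC61 arrays, against -0.02, -0.08, -0.04, -0.03 and 0.18 on the PBS arrays.

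**Figure D1:**
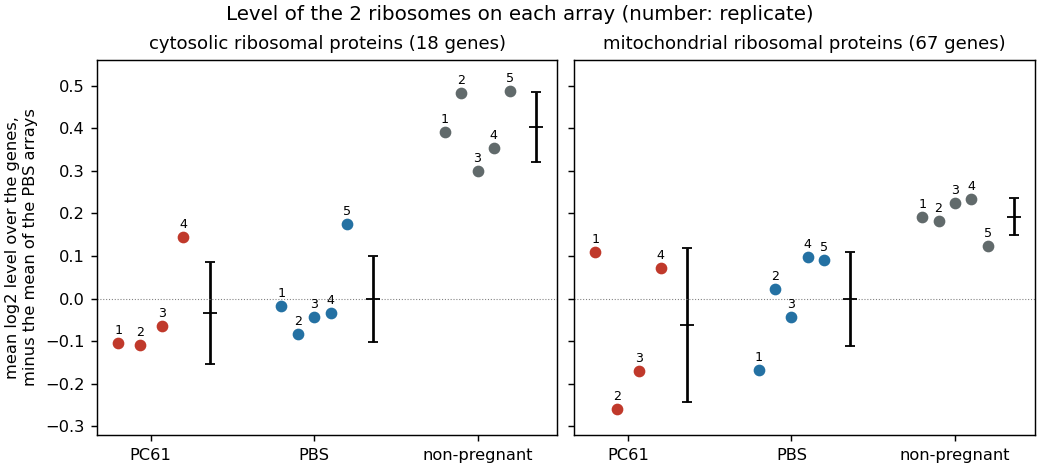
Mean log2 level over the 18 cytosolic (left) and 67 mitochondrial (right) ribosomal protein genes on each array, minus the mean of the PBS arrays; numbered points are arrays, and the black mark and bar are the group mean ± SD (n = 4 PC61, 5 PBS, 5 non-pregnant). All 5 non-pregnant arrays lie above all pregnant arrays in both panels (lowest 0.30 and 0.12), and PC61 arrays 2 and 3 are the lowest for the mitochondrial genes at -0.26 and -0.17.

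On the same PC61 arrays 1 to 4, markers of other tissue parts moved as well. Relative to the PBS mean, the proliferation markers stood at 0.25, -0.96, -1.39 and -0.06, the smooth muscle markers at 1.33, 1.85, 1.64 and -0.67, the erythroid and yolk sac markers at -0.41, -3.04, -2.39 and 0.10, and the decidual markers at -2.53, 0.18, 0.30 and -0.11. The mean of 50 ribosome biogenesis genes stood at 0.13, -0.30, -0.30 and 0.11. Proliferation, erythroid and biogenesis genes were thus lowest on arrays 2 and 3, as the mitochondrial ribosomal genes were, whereas trophoblast and smooth muscle genes also set array 1 apart. Their part in the result was not tested.

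Members of both ribosomes were called in pregnancy, but only the cytosolic genes were lower clearly more often than genes at large. In pregnant uterus given PBS, set against uterus without pregnancy, 10 of 18 cytosolic genes (55.6%) were lower and 0 higher, where 23.7% of all genes tested were lower and 22.9% higher (46.6% called). The median difference was -0.43, against -0.03 over all genes, and 17 of 18 differences were negative. By mean level the cytosolic genes had a median percentile of 99.6, with 13 of 18 in the top 5% of all genes. The mitochondrial genes had a median percentile of 81.1, with 4 of 67 in the top 5%. All genes are thus not a background of like brightness, and the part of brightness in the difference was not tested. The 10 genes were lower by 22.2% to 59.1%, with a median of 31.6%. Scaling arrays by their medians gave 3 of 18 lower genes (11.4% of all genes were then lower) and a median of -0.29, which is -0.45 relative to all genes, and over 28 settings the median relative to all genes lay between -0.45 and -0.32. Without the 3 arrays that stand apart, 8 genes were lower, against 21.9% of all genes. Markers of cell types moved with this comparison: 12 of 12 trophoblast and 7 of 7 erythroid and yolk sac markers were higher in PBS uterus, as were 4 of 6 proliferation markers, while 4 of 9 smooth muscle and 4 of 5 uterine markers were lower. Of 4 macrophage and leukocyte markers 3 were lower, among them Lyz2 at -3.70 and Adgre1 at -2.26, and 1 was higher. Of 8 endometrial epithelial markers 2 were lower, Sprr2f at -6.04 and Ltf at -4.14, and 2 higher. Decidual markers had 2 higher and 1 lower of 5, and endothelial markers 1 higher and 2 lower of 5. Counted from the PBS average, the non-pregnant arrays lay at -5.91 to -5.82 for the trophoblast list, -1.61 to -0.56 for proliferation, 0.81 to 1.58 for smooth muscle and 1.30 to 2.50 for the uterine list. Their part in the result was not tested.

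**Figure D2:**
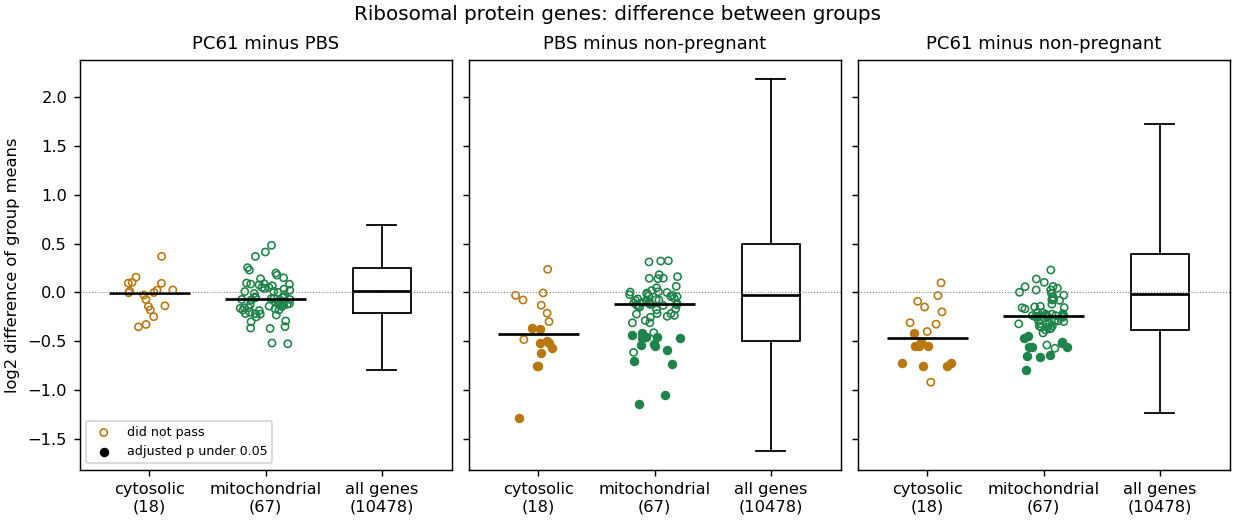
Log2 difference of group means for each ribosomal protein gene in the 3 comparisons (filled: adjusted p under 0.05, limma; black line: median), beside all 10478 genes tested (box: quartiles, whiskers: percentiles 5 and 95). No point is filled for PC61 minus PBS; in the other comparisons every filled point is below 0, with cytosolic medians of -0.43 and -0.46 and mitochondrial medians of -0.12 (0.05 with arrays scaled by their medians) and -0.24.

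The small subunit carried 6 of the 10 lower genes. Rps3, which lines the channel where mRNA enters and also acts in DNA repair, was 13.35, 13.00, 13.30, 12.94 and 13.39 in PBS uterus, against 13.9999, 13.88, 13.99, 13.92 and 13.95 in non-pregnant uterus. The groups were far apart, with a difference of -0.75 (SE 0.12, adjusted p 0.000211), or 0.594 times the non-pregnant level, and the tight non-pregnant arrays had an SD of 0.05. Rps4x, the X-linked form of S4, was 14.13, 14.02, 14.37, 13.9999 and 14.17 in PBS uterus, against 15.06, 14.72, 14.74, 14.92 and 15.0024 in non-pregnant uterus (-0.75, SE 0.13, adjusted p 0.000286). These groups did not overlap either, although non-pregnant array 1 sat at 15.06, the highest value an array could take after normalization. Rps9, of the small subunit body, was -0.57 (SE 0.13, adjusted p 0.0027), and Rps19, the gene most often mutated in the human anaemia of Diamond and Blackfan, was -0.52 (SE 0.12, adjusted p 0.00333). Rps7 was -0.37 (SE 0.12, adjusted p 0.0202). In all 5 of these genes every PBS array lay below every non-pregnant array, which held for 6 of 18 cytosolic genes and 20.1% of all genes.

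Rps3a1, whose product sits on the platform of the small subunit, had the largest difference of the members in this comparison. It was 9.60, 9.38, 8.84, 9.66 and 10.80 in PBS uterus, against 10.59, 11.20, 10.46, 10.83 and 11.66 in non-pregnant uterus (-1.29, SE 0.35, adjusted p 0.00744). PBS array 5 lay within the non-pregnant range, and it is 1 of the 3 arrays that stand apart. Among 3 small-subunit genes that were not called, Rps10 differed by -0.21, Rps27l by -0.13 and Rps29 by -0.08.

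In the large subunit, 4 of 9 genes were lower. Rpl10a was 13.89, 13.89, 14.01, 14.02 and 14.37 in PBS uterus, against 14.49, 14.57, 14.49, 14.62 and 14.57 in non-pregnant uterus (-0.51, SE 0.12, adjusted p 0.00294), without overlap, though PBS array 5 came close. Rpl26, which also binds the p53 message, was -0.62 (SE 0.18, adjusted p 0.0111), with PBS array 5 at 13.15 above the lowest non-pregnant array at 13.04. Rpl7l1, a relative of Rpl7 whose yeast counterpart acts in assembly, was -0.49 (SE 0.18, adjusted p 0.0339), and Rpl4 was -0.36 (SE 0.14, adjusted p 0.0404). Rpl27 missed the threshold at -0.30 (SE 0.12, adjusted p 0.0548). Rpl38, known in mouse for its role in translating Hox messages, and Rpl41 stood at -0.03 and -0.00 with means of 14.63 and 14.78 over all arrays, close under the ceiling of 15.06. Rpl22l1, the paralog of Rpl22, was -0.48 (SE 0.42, adjusted p 0.366), and Rpl3l, the striated muscle form of Rpl3, was 0.24 (SE 0.39, adjusted p 0.652), the single positive cytosolic difference. Both of these last genes lay near the detection limit, Rpl3l being detected on 3 of 4 PC61, 5 of 5 PBS and 3 of 5 non-pregnant arrays.

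**Figure D3:**
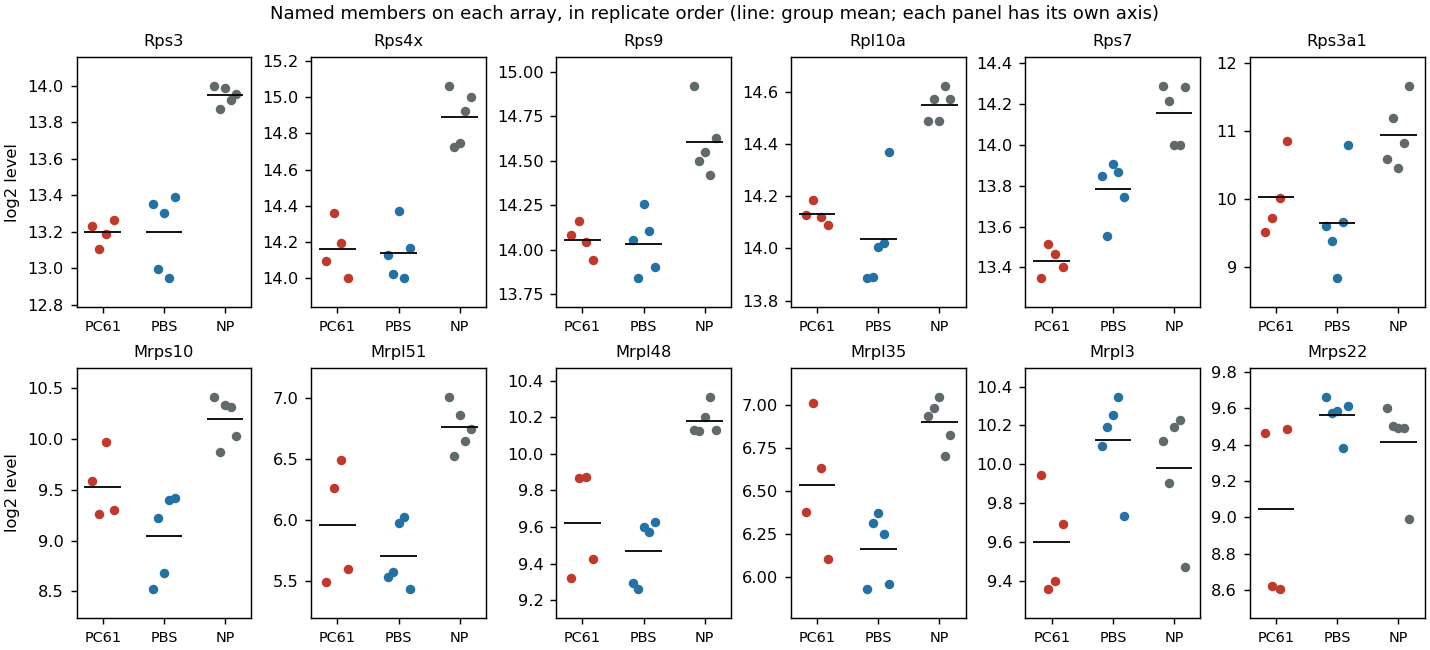
Log2 level on each array, in replicate order, of 6 cytosolic (top) and 6 mitochondrial (bottom) ribosomal protein genes in PC61, PBS and non-pregnant (NP) uterus; lines are group means and each panel has its own axis. Rps3 and Rps4x form 1 pregnant level near 13.2 and 14.1 and a separate non-pregnant level near 13.95 and 14.89, Rps7 has the PC61 arrays below the PBS arrays, and Mrps22 is low on PC61 arrays 2 and 3.

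The mitochondrial ribosome was called lower in pregnancy no more often than genes at large. In PBS against non-pregnant uterus 15 of 67 genes (22.4%) were lower, against 23.7% of all genes, and 0 were higher, against 22.9%. The median difference was -0.12, against -0.03 over all genes, and 54 of 67 differences were negative; with arrays scaled by their medians the mitochondrial median turned to 0.05, which is -0.11 relative to all genes, and 2 genes were lower, against 11.4% of all genes. The large subunit had 8 of 40 genes lower and the small subunit 7 of 27. Without the 3 arrays that stand apart, 16 genes were lower, against 21.9% of all genes, and the median was -0.17.

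The lower mitochondrial genes fell clearly in a few cases. Mrps10, a small-subunit protein with a bacterial counterpart, was 8.52, 9.23, 8.68, 9.40 and 9.41 in PBS uterus, against 10.42, 9.87, 10.33, 10.31 and 10.03 in non-pregnant uterus (-1.14, SE 0.21, adjusted p 0.000504), or 0.453 times the non-pregnant level. Mrpl51, a large-subunit protein found in the mitochondrial but not the bacterial ribosome, was 5.53, 5.57, 5.98, 6.02 and 5.43 in PBS uterus, against 7.01, 6.52, 6.86, 6.65 and 6.75 in non-pregnant uterus (-1.05, SE 0.20, adjusted p 0.00079). Mrpl48 was -0.71 (SE 0.14, adjusted p 0.00115) and Mrpl35 was -0.74 (SE 0.17, adjusted p 0.00272), both large-subunit proteins. In these 4 genes the PBS arrays all lay below the non-pregnant arrays, as in 12 of the 67 (20.1% of all genes). Mrps12 was -0.47 (adjusted p 0.00322), Mrpl4 was -0.53 (adjusted p 0.00521) and Mrps18a was -0.53 (adjusted p 0.00946). The other called genes, Mrpl33, Mrps24, Mrpl42, Mrps16, Mrps35, Mrpl9, Mrps28 and Mrpl55, lay between -0.59 and -0.42.

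Mitochondrial paralogs and proteins with second roles did not move as 1 group. Of the 3 genes that descend from bacterial S18, Mrps18a was lower in PBS uterus, while Mrps18b differed by 0.05 (SE 0.19) and Mrps18c by -0.11 (SE 0.26). The dimmer probes of Mrps18b went the other way, at -0.25 and -0.28, without passing (adjusted p 0.354 and 0.340). The first of these was called lower in PC61 against non-pregnant uterus (-0.67, adjusted p 0.0395). Mrpl12, which also binds the mitochondrial RNA polymerase, differed by -0.15 (SE 0.17, adjusted p 0.489), and Mrpl11 by -0.07 (SE 0.17, adjusted p 0.755). The largest positive differences were Mrps33 at 0.33 (SE 0.14, adjusted p 0.0715), Mrpl46 at 0.32 (SE 0.19, adjusted p 0.174) and Mrpl14 at 0.31 (SE 0.14, adjusted p 0.0854). Mrpl14 was the single member whose PBS arrays all lay above the non-pregnant arrays, at 10.44, 10.61, 10.49, 10.76 and 10.59 in PBS uterus, against 10.22, 10.28, 10.34, 10.28 and 10.20 in non-pregnant uterus; 21.1% of all genes did so.

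PC61-treated pregnant uterus was compared with the same non-pregnant arrays, so the 2 pregnancy comparisons share their controls and are not independent of each other. In PC61 against non-pregnant uterus 9 of 18 cytosolic genes (50%) were lower and 0 higher, against 14.6% of all genes lower and 13.7% higher (28.3% called), and the median was -0.46, against -0.02 over all genes. Of the mitochondrial genes 11 of 67 (16.4%) were lower and 0 higher, with a median of -0.24 and 58 negative differences. All PC61 arrays lay below all non-pregnant arrays for 10 cytosolic and 9 mitochondrial genes, against 11.7% of all genes. Without the 3 arrays that stand apart, 7 cytosolic and 6 mitochondrial genes were lower, against 9.91% of all genes, and with arrays scaled by their medians 4 and 0 were, against 8.72%. Leaving out non-pregnant array 1 or 4 gave 7 mitochondrial genes in either case, where 11.8% and 12.4% of all genes were lower. Cell type markers moved here too: 7 of 7 erythroid and yolk sac, 5 of 12 trophoblast, 2 of 5 decidual and 1 of 9 smooth muscle markers were higher in PC61 uterus, while 5 of 8 endometrial epithelial, 3 of 5 uterine and 2 of 4 macrophage and leukocyte markers were lower. Endothelial markers had 1 higher and 2 lower of 5, and 0 of 6 proliferation markers passed. Their part in the result was not tested.

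Rps3 was 13.23, 13.11, 13.19 and 13.26 in PC61 uterus, below all non-pregnant arrays (-0.75, SE 0.13, adjusted p 0.000643). Rps7 was -0.73 (SE 0.13, adjusted p 0.000741) in PC61 against non-pregnant uterus, beside -0.37 in PBS against non-pregnant uterus. Rps4x was 14.10, 14.36, 14.20 and 13.9999 in PC61 uterus, again below all non-pregnant arrays (-0.73, SE 0.14, adjusted p 0.00115). These 3 small-subunit genes had the clearest separation of the 9. Rpl27 passed at -0.55 (SE 0.13, adjusted p 0.00546), Rps19 at -0.55 (SE 0.13, adjusted p 0.00651) and Rpl26 at -0.76 (SE 0.19, adjusted p 0.00858). Rpl10a passed at -0.42 (SE 0.13, adjusted p 0.0237), Rps9 at -0.55 and Rpl4 at -0.51. Rps3a1 did not pass, at -0.92 (SE 0.37, adjusted p 0.0776), with PC61 array 4 at 10.85 inside the non-pregnant range.

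Of the cytosolic genes, 8 were lower in both pregnant groups, Rps3a1 and Rpl7l1 in PBS uterus alone, and Rpl27 in PC61 uterus alone. Of the mitochondrial genes, 9 were lower in both, 6 in PBS uterus alone and 2, Mrpl22 and Mrpl44, in PC61 uterus alone. The share of all genes lower in both comparisons was not computed. These overlaps therefore cannot be set against genes at large. Since no member passed in PC61 against PBS, these differences in calls do not show that the pregnant groups differed. Among the mitochondrial genes called in PC61 uterus were Mrpl51 at -0.80 (SE 0.22, adjusted p 0.013), Mrps18a at -0.66 (SE 0.16, adjusted p 0.00704), Mrpl42 at -0.56 (SE 0.13, adjusted p 0.00605) and Mrps16 at -0.56 (SE 0.15, adjusted p 0.0104). Mrps16, an ortholog of bacterial S16 in which a human mutation impairs mitochondrial translation, was 9.32, 8.87, 9.07 and 9.16 in PC61 uterus, all below the non-pregnant range of 9.34 to 9.83.

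**Figure D4:**
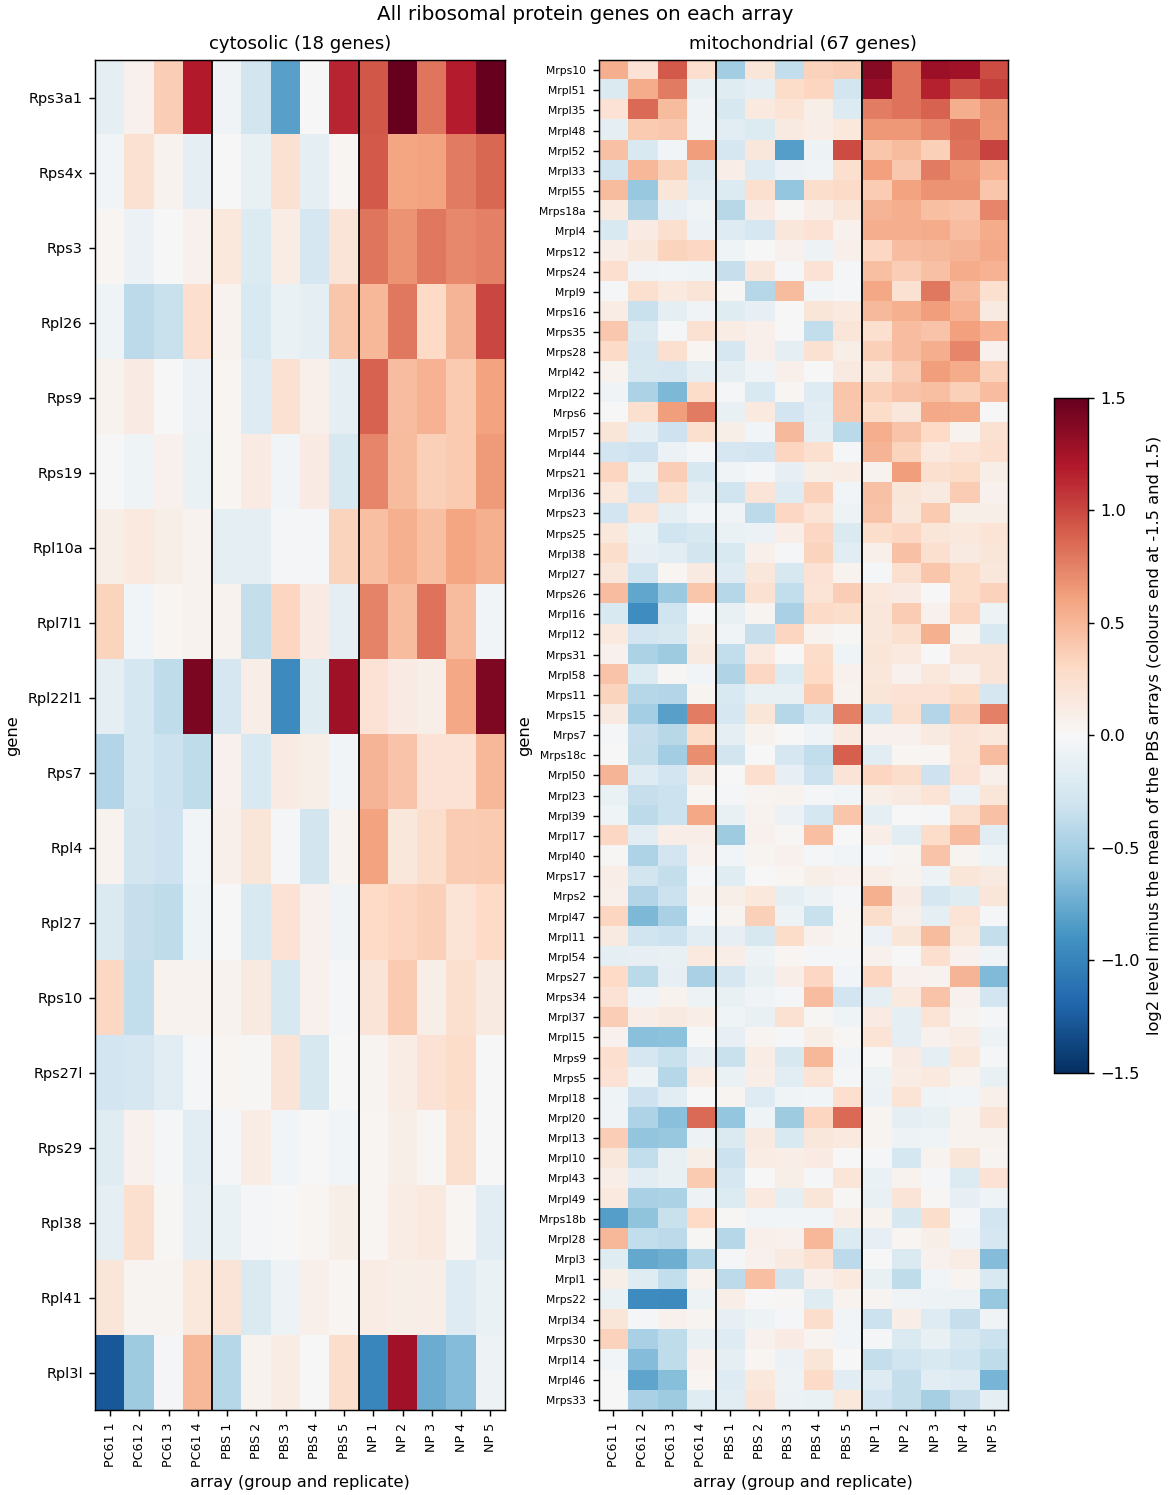
Log2 level of all 85 ribosomal protein genes on each array minus the gene's mean over the PBS arrays (red higher, blue lower; colours end at -1.5 and 1.5), with 4 PC61, 5 PBS and 5 non-pregnant (NP) arrays from left to right and genes ordered by their difference of PBS minus non-pregnant. The red block of the NP columns covers the upper rows of both panels, PC61 arrays 2 and 3 are blue across much of the mitochondrial panel, and Rps3a1 and Rpl22l1 are red on PC61 4 and PBS 5 as well.

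The distance between the ribosomes was described per array as the mean of the cytosolic genes minus that of the mitochondrial genes, each relative to PBS. It was 0.03 ± 0.16 on PC61 arrays, 0 ± 0.12 on PBS arrays and 0.21 ± 0.12 on non-pregnant arrays (SD, n = 4, 5 and 5). Array means of the cytosolic genes were 0.39, 0.48, 0.30, 0.35 and 0.49 on the non-pregnant arrays, and those of the mitochondrial genes 0.19, 0.18, 0.22, 0.23 and 0.12. Within groups the members were steady: the median SD of a cytosolic gene was 0.149, 0.165 and 0.149 in PC61, PBS and non-pregnant uterus, that of a mitochondrial gene 0.276, 0.217 and 0.160, and that of all genes 0.403, 0.242 and 0.251.

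Several probes measured 28 of the members. All probes of a gene had the same sign in 18 of 28 genes for PC61 minus PBS, in 24 for PBS minus non-pregnant and in 23 for PC61 minus non-pregnant, and no gene had probes called in opposite directions. Counted by probe, 14 of 23 cytosolic (60.9%) and 25 of 98 mitochondrial probes (25.5%) were lower in PBS than in non-pregnant uterus and 0 were higher. Probe p-values were adjusted over the 20967 kept probes. The share lower among all those probes was not computed, so these counts cannot be set against probes at large. Rps9 had both its probes lower, at -0.80 and -0.57, and Mrpl48 all 3, between -0.82 and -0.71. Rpl38 was split by brightness: its bright probe near the ceiling, at a mean of 14.63, differed by -0.03, while its dim probe, at 8.84, differed by -0.48 (adjusted p 0.0392) in PBS and by -0.79 (adjusted p 0.0063) in PC61 uterus, each against non-pregnant uterus. Mrps10 was split too, its second probe differing by -0.37 (adjusted p 0.0861) where the one reported above differed by -1.14. Some genes counted as not called had a dimmer probe lower in PBS uterus. Among them were Mrpl38 (-0.84, adjusted p 0.000322), Mrps7 (-0.54, adjusted p 0.00394) and Mrps23 (-0.49, adjusted p 0.00444). The called genes Mrps12 and Mrpl9 had a second probe that did not pass (adjusted p 0.0616 and 0.223). Counts of genes called thus depend on the probe that stands for a gene.

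**Figure D5:**
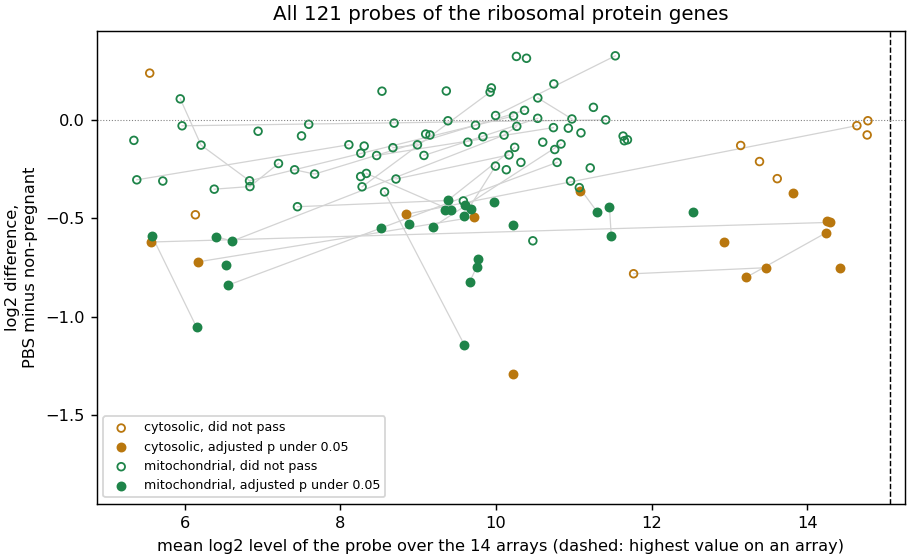
Log2 difference of PBS minus non-pregnant uterus against the mean log2 level over the 14 arrays for all 121 probes (filled: adjusted p under 0.05; grey lines join probes of 1 gene; dashed line: highest value on an array, 15.06). Filled probes all lie below 0, and the probes nearest the ceiling, of Rpl38, Rps29 and Rpl41, differ by -0.03, -0.08 and -0.00.

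The other genes of the translation pathway were taken from 7 lists. None of their members passed in PC61 against PBS, with or without the 3 arrays that stand apart (0% and 10.9% of all genes). Rplp0, the stalk protein of the large subunit whose symbol lies outside the naming rule, was lower in both pregnant groups, at -0.83 (adjusted p 0.0135) in PC61 and -0.86 (adjusted p 0.00446) in PBS uterus, while Rplp2, its partner in the stalk, did not pass. Neither of them passed in PC61 uterus without the 3 arrays, and 1 of the 2 did in PBS uterus, where 20.5% and 42.2% of all genes were called. Dap3, Chchd1 and other mitochondrial subunits outside the rule gave 0 calls among 4 tested in either pregnant group against non-pregnant uterus. Of all genes, 28.3% were called in PC61 and 46.6% in PBS uterus.

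Of 50 ribosome biogenesis genes, 10 were lower in PC61 and 11 in PBS uterus, each against non-pregnant uterus, and 0 were higher. Nhp2, a protein of the particles that guide pseudouridylation of ribosomal RNA, was -0.89 (adjusted p 0.00025) in PC61 and -0.59 (adjusted p 0.00195) in PBS uterus. Nmd3, the export adaptor of the large subunit, was -0.86 (adjusted p 0.000877) and Imp3, a component of the small-subunit processome, -0.74 (adjusted p 0.000685), both in PBS uterus. The shares lower were 20% in PC61 and 22% in PBS uterus, against 14.6% and 23.7% of all genes. With the 3 arrays left out 5 and 9 were lower (10% and 18%), against 9.91% and 21.9% of all genes.

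Of 37 mitochondrial translation and assembly genes, 9 were lower in PC61 and 11 in PBS uterus, with 0 higher. These are 24.3% and 29.7% of the list, against 14.6% and 23.7% of all genes, and without the 3 arrays 5 and 7 genes were lower (13.5% and 18.9%), against 9.91% and 21.9%. Cars2, the mitochondrial cysteinyl-tRNA synthetase, was -0.76 (adjusted p 0.0014) in PC61 and -1.06 (adjusted p 2.94e-05) in PBS uterus. Mtif2, the mitochondrial initiation factor that brings the initiator tRNA, was -1.03 (adjusted p 5.39e-05) in PBS uterus.

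Cytosolic translation factors, 29 in all, split in direction, with 1 higher and 5 lower in PC61 and 2 higher and 3 lower in PBS uterus. The shares called were 20.7% and 17.2%, against 28.3% and 46.6% of all genes, and without the 3 arrays 1 was higher and 3 lower in either comparison (13.8%, against 20.5% and 42.2% of all genes). Eef1a2, the form of elongation factor 1 alpha known from muscle and neurons, was detected on 0 of 5 non-pregnant and on all 9 pregnant arrays, with means of 7.13 in PC61, 7.53 in PBS and 4.65 in non-pregnant uterus (adjusted p 2.18e-07 and 1.81e-08). Its non-pregnant level is only a bound, so it was at least 3.91-fold higher in PC61 and at least 5.16-fold higher in PBS uterus. Such a bound sets the brighter group's mean against the lowest signal among detected probes on each array of the dim group, or against the dim probe's own signal where that is higher. Eef1d, an exchange factor for elongation factor 1, was lower, at -0.58 in PC61 and -0.50 in PBS uterus (adjusted p 0.00538 and 0.00523), and Eif4g2, a translation initiation scaffold, at -0.65 in PBS uterus (adjusted p 0.00272). Of 13 cytosolic tRNA synthetases, 1 was higher and 2 lower in PC61 and 1 was higher and 1 lower in PBS uterus (23.1% and 15.4% called, against 28.3% and 46.6% of all genes). Sars was higher, by 0.54 in both comparisons (adjusted p 0.0146 in PC61 and 0.00574 in PBS uterus), but without the 3 arrays no synthetase was higher in PC61 uterus, 1 was lower there, and 1 was higher and 1 lower in PBS uterus. The shares called were then 7.69% and 15.4%, against 20.5% and 42.2% of all genes. Vars was lower, at -0.67 (adjusted p 0.0112) in PC61 and -1.10 (adjusted p 0.000114) in PBS uterus.

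Among 14 genes of the mTOR and Myc pathway, 1 was higher and 3 lower in PC61, and 1 was higher and 4 lower in PBS uterus. The shares called, 28.6% and 35.7%, compare with 28.3% and 46.6% of all genes. Without the 3 arrays 0 were higher and 2 lower in PC61 uterus and 1 was higher and 2 lower in PBS uterus (14.3% and 21.4%, against 20.5% and 42.2% of all genes). Eif4ebp1, a brake on cap-dependent initiation that mTOR relieves, was higher by 0.86 (adjusted p 0.00692) in PC61 and 0.98 (adjusted p 0.00108) in PBS uterus. Myc, which drives ribosome synthesis, was detected on 0 of 4 PC61, 3 of 5 PBS and 4 of 5 non-pregnant arrays. Its PC61 level is only a bound, at least 1.62-fold lower in PC61 than in non-pregnant uterus (means 4.75 and 5.85, adjusted p 0.000524), and in PBS uterus it was lower, at -0.77 (adjusted p 0.00238). Larp1, which binds messages with a pyrimidine run at their start, was lower, at -0.81 (adjusted p 0.0113) in PC61 and -0.77 (adjusted p 0.00594) in PBS uterus.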

How the data were processed

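Per the file headers, the deposited scanner values are 1 intensity and 1 detection p-value per probe and array, for 45281 probes. The authors' deposited matrix holds log2 values of 16948 probes. It gave the set of named genes and an alternative source of values, and no source used here says how it was normalized or filtered. Intensities were processed with limma 3.58.1 in R 4.3.3: normexp background inferred from the detection p-values, offset 16, quantile normalization and log2. A probe was kept if its detection p was under 0.01 on 4 or more of the 14 arrays, and the probe of highest mean stood for its gene, so that a gene is named from the platform's annotation. All arrays entered 1 fit with 3 group means (lmFit and eBayes, 11 residual and 3.40 prior degrees of freedom), two-sided, with Benjamini-Hochberg adjustment over 10478 genes. A call is an adjusted p under 0.05. The number of arrays limits the precision: the median SE over all genes was 0.225 for PC61 minus PBS and 0.212 for PBS minus non-pregnant. The test was checked on simulated data. Of changes of log2 size 1, it recovered 51% for PC61 minus PBS, 59% for PBS minus non-pregnant and 50% for PC61 minus non-pregnant. For size 2 these shares were 95%, 89% and 92%. Smaller changes, such as all member differences for PC61 minus PBS, were not simulated. The members, lists and tests were chosen with earlier results of these data known, so no p is given for a list. The genes described singly were, per ribosome and direction, the 4 of lowest p among calls (3 where under 2 passed), the 6 of largest spread and a set of paralogs and known subunits, with up to 3 genes of each pathway list. Others, among them Rpl4, Rpl38, Mrpl4 and Mrpl14, were added after their values were seen. Rps3a1 had been missed by the wording of the symbol rule and was counted as a member, and counts without it are given in the closing section. Same-numbered arrays were not paired by the labels, and their deviations from group means correlated between -0.18 and 0.33. Promoters were read from RefSeq (GRCm38.p6).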

Additional observations from a re-analysis of the deposited data

Results flagged for a closer look

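Of 108 sets of 4 or 5 arrays examined for 1 value far from the others, 6 stood out by Dixon's criterion, and chance alone gives about 1 in 20. Rpl22l1 was 7.33 on PC61 array 4, where the other PC61 arrays lay between 5.55 and 5.78. Rpl10a was 14.37 on PBS array 5, where the others lay between 13.89 and 14.02, and the mean of the 18 cytosolic genes relative to PBS was 0.18 on that array, where the others lay between -0.08 and -0.02. Mrps18a was 9.65 on PBS array 1, where the others lay between 10.08 and 10.24. On non-pregnant array 5, Mrps16 was 9.34, where the others lay between 9.69 and 9.83, and Mrps22 was 8.99, where the others lay between 9.49 and 9.60. PC61 array 4, PBS array 5 and non-pregnant array 5, the arrays that stand apart among the members, held 5 of the 6 values. Since these arrays were picked from values of the same genes, the match adds no separate evidence.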

How the results depend on the processing

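Relative to all genes, the cytosolic median lay between -0.10 and 0.14 for PC61 minus PBS, -0.45 and -0.32 for PBS minus non-pregnant and -0.49 and -0.40 for PC61 minus non-pregnant over 28 settings, and the mitochondrial median between -0.22 and -0.04, -0.14 and -0.05, and -0.32 and -0.15. Scaling arrays by their medians in place of quantiles shifted the median of all genes to -0.30, 0.16 and -0.15 in these 3 comparisons. Under it the list medians were -0.16 (cytosolic) and -0.41 (mitochondrial) for PC61 minus PBS and -0.29 and 0.050 for PBS minus non-pregnant, with -0.41 for the mitochondrial genes in PC61 minus non-pregnant. Calls were then 3 cytosolic, 2 mitochondrial and 7 pathway genes in PBS minus non-pregnant (33.1% of all genes) and 4, 0 and 11 in PC61 minus non-pregnant (17.1%), and Rpl10a turned to -0.025 for PC61 minus PBS. Array weights gave 22 of 67 mitochondrial and 29 pathway calls (mitochondrial median -0.23) for PC61 minus PBS and 31 and 78 (median -0.38) for PC61 minus non-pregnant, where 38.5% and 39.4% of all genes were called. Blocking on the replicate number, which does not pair the arrays, gave 7 mitochondrial calls for PC61 minus non-pregnant, where 25% of all genes were called. It changed no other count by over 1.5 times. Leaving out PC61 array 4, PBS array 5 and non-pregnant array 5 together, chosen after seeing the data, gave 1 mitochondrial call for PC61 minus PBS (10.9% of all genes) and 6 mitochondrial and 17 pathway calls for PC61 minus non-pregnant (20.5%), against 11 and 33 with all arrays. Leaving out 1 array at a time gave, for PC61 minus PBS, 0 to 0 cytosolic, 0 to 2 mitochondrial and 0 to 2 pathway calls, the 2 of each without PC61 array 4, where 14.6% of all genes were called. It gave 7 to 11, 11 to 16 and 26 to 40 for PBS minus non-pregnant, and 8 to 10, 7 to 11 and 23 to 39 for PC61 minus non-pregnant. Of all genes, 41.9% to 50.2% and 23.4% to 29.6% were called in these 2 comparisons. Leaving out Rps3a1 gave 9 cytosolic calls in both pregnancy comparisons, where 46.6% (PBS) and 28.3% (PC61) of all genes were called. The cause of these changes was not tested. The slide as a block was not run, since the files give no slide, and values near the top of the scale, as for Rpl38, leave little room to measure a rise.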
